A study of Rattus norvegicus with 10 samples.

Results

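The DNA damage sensing and repair genes comprised 47 genes, chosen by their place in the known repair pathways, though with earlier results of these data known. They were 8 of nucleotide excision repair, 11 of base excision and single strand break repair, the direct reversal enzyme Mgmt, 3 DNA polymerases, 10 of homologous recombination and crosslink repair, 5 of end joining, 3 of mismatch repair and 6 of damage signalling. A gene was taken as measured where the accession of a probe matched its symbol, which held for 37 of the 47, among 13426 genes tested in all. The remaining 10, Ddb2, Ercc4, Ercc5, Rad52, Atr, Blm, Wrn, Lig3, Msh6 and Tp53bp1, had no probe matched in this way and were not analysed here. Livers came from male Wistar rats in 3 groups: 3 untreated control rats, 3 rats given total-body irradiation (TBI) alone, and 4 rats given MASM by gavage at 30 mg/kg a day for 3 days before the same irradiation (MASM + TBI). MASM is a derivative of matrine, a plant alkaloid. The labels give 6.5 Gy from a cobalt source, another dose than the text of the study, and place every liver at 24 h after exposure. There was no group with MASM and no irradiation, so an effect of MASM alone cannot be told apart from its effect in irradiated liver.

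Ionising radiation breaks one or both strands of DNA and oxidises its bases. Breaks are sensed by the MRN complex (Mre11, Rad50 and Nbn) and the kinases Atm and Atr, which act through Chek1 and Chek2, and they are rejoined by end joining at any time or by homologous recombination once a sister copy has been made. Single damaged bases are cut out and replaced by excision repair, and mispaired bases by mismatch repair. Several repair proteins, among them DNA ligase and the replicative polymerase, also serve DNA replication, and most hepatocytes of adult liver are not dividing.

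RNA of each rat had been hybridised to an array of its own, and levels are given as log2 of the quantile-normalised signal, so that a difference of 1 is a change of 2-fold. The number of arrays limits the precision of every value. The share of spots, controls left out, that rose well above background was between 57.2% and 59.9% for control rats, between 64.1% and 70.1% for TBI rats and between 56.2% and 60.2% for MASM + TBI rats. Cdkn1a, the cell cycle inhibitor that p53 induces after DNA damage, had a mean log2 signal of 8.37 in control, 13.73 in TBI and 13.17 in MASM + TBI rats, and was thus higher in both groups labelled as irradiated. All 8 hepatocyte markers examined had a probe, and 0 of them passed the test described below in any of the 3 comparisons (limma), where 4 had an unadjusted p under 0.05 for TBI and 3 for MASM + TBI against control, beside 25.3% and 20.5% of all genes. In each of these comparisons 4 of the 8 had groups that did not overlap, beside 30.6% and 22.3% of all genes, and Tat, an enzyme that breaks down tyrosine, gave 1.53 (adjusted p = 0.0885) and 1.13 (adjusted p = 0.211). The arrays lay on 3 slides, the first with all control rats plus rat 3 of the MASM + TBI group, the second with all TBI rats, and the third with the remaining MASM + TBI rats. For TBI against control, and for MASM + TBI against TBI, slide and group therefore cannot be told apart. In a piece of tissue, fewer cells of a type and less RNA per cell cannot be told apart either.

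Between TBI and control livers, 10 of the 37 measured genes passed the test (limma, adjusted p under 0.05 over all probes), 2 of them higher and 8 lower after TBI. The count was 5 without control rat 1 or TBI rat 2, 4 without control rat 2 and 3 without control rat 3, and it was 3 with only the 2 groups compared and 0 with the methods' t-test after adjustment. The 10 genes were 27.0% of the measured repair genes, beside 6.63% of all genes, of which 2.97% were higher and 3.66% lower. Mgmt and Prkdc rose, and Lig1, Pold1, Rad54l, Chek2, Rad50, Mutyh and Pms2 fell. The eighth gene on the lower side was Brca1, whose probe did not rise well above background in any rat and for which no fold is given. The median log2 difference of the 37 genes was -0.27, beside -0.01 over all genes, with 30 estimates below 0 and 7 above, and it was -0.15 after a normexp correction of the background. In 15 of the 37 genes every TBI rat lay below every control rat, and in 2 every TBI rat lay above, which together is 45.9%, beside 30.6% of all genes whose groups did not overlap in either direction and 17.5% with the TBI rats below.

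The repair genes gave stronger signals than the average gene, as 33 of the 37 were well above background on every array, beside 62.8% of all genes. Among genes well above background on every array, 7.32% passed the test for TBI against control. Of the repair genes that passed it, 9 were in that class. The thresholds of the study, an unadjusted p under 0.05 and a change of at least 1.5-fold, were applied to the limma p-values. Of the 37 genes 10 passed, 2 higher and 8 lower, beside 13.1% of all genes, and at the unadjusted p alone 17 passed, beside 25.3% of all genes. With the t-test of the study's methods in place of limma, 9 passed both thresholds, beside 7.43% of all genes. Counts by pathway were 0 of 5 in nucleotide excision repair, 2 of 10 in base excision repair, 1 of 3 polymerases, 3 of 7 in recombination, 1 of 5 in end joining, 1 of 2 in mismatch repair and 1 of 4 in signalling, besides Mgmt. MASM + TBI was compared with the same control rats, so the values of both comparisons are set side by side and are not independent of each other.

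**Figure D1:**
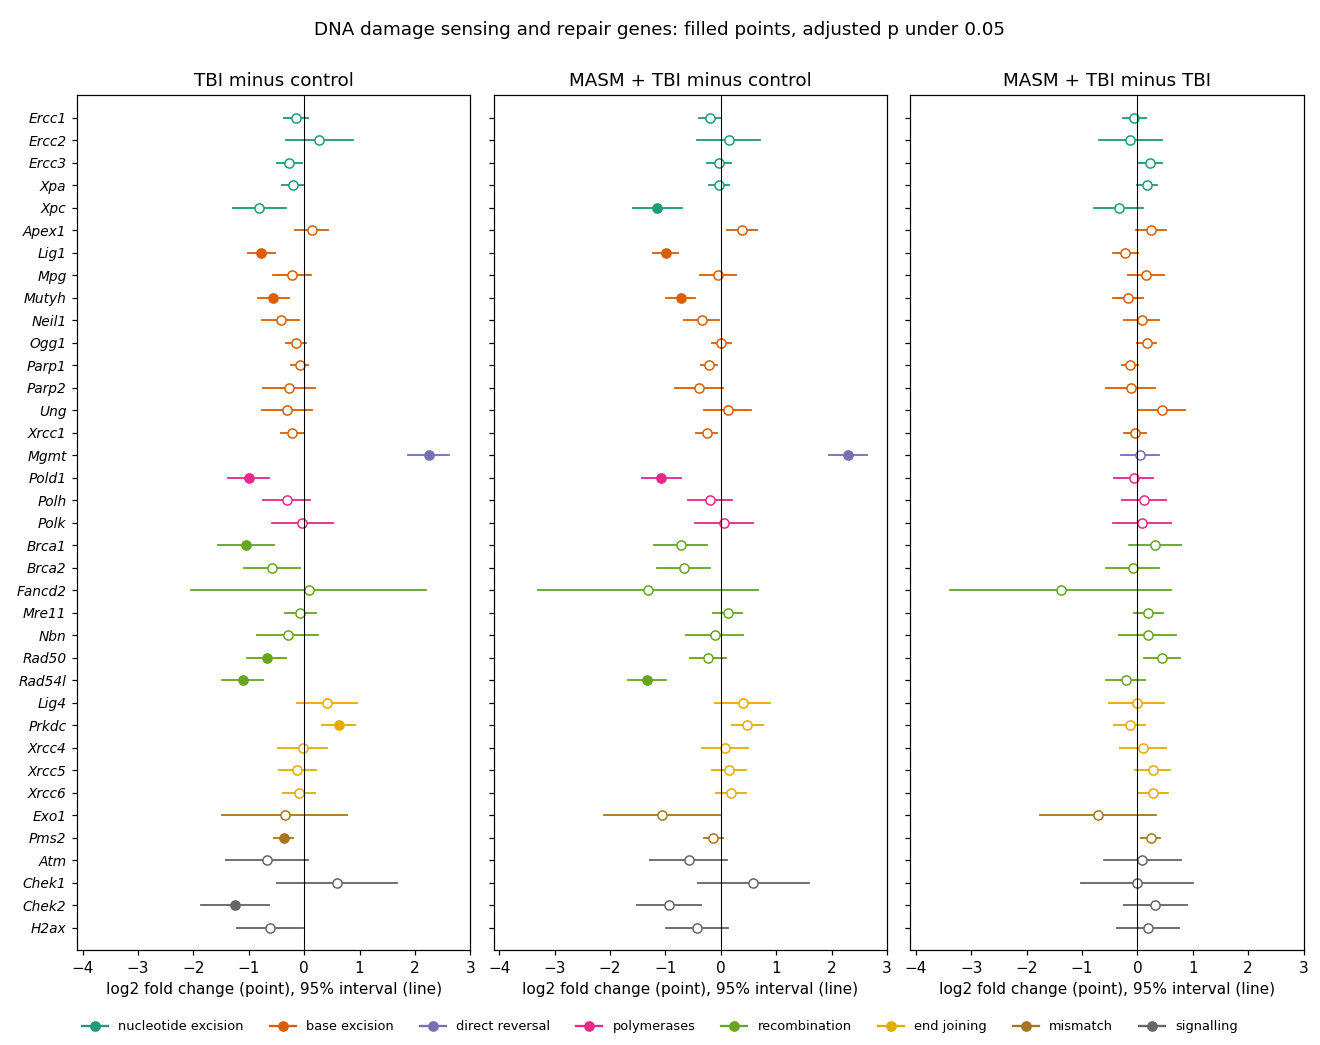
Log2 fold change (x axis, points) with its 95% interval (lines) for each of the 37 measured repair genes (y axis, coloured by pathway) in the 3 comparisons; filled points have an adjusted p under 0.05. Mgmt stands alone at 2.25 and 2.30 on the right of the first and second panels, most points there lie left of 0, and no point is filled in the third panel; Brca1 is drawn although its probe was not well above background on any array.

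The starts of Mgmt, Lig1, Rad54l and Pold1 are shown because these genes passed the test in both comparisons with control and in most other settings of the analysis. The sequences are from RefSeq on the GRCr8 assembly, each 300 bases long from 250 before to 50 after the start of the gene, at chr1:201140582-201140881 (+) for Mgmt, chr1:83242920-83243219 (+) for Lig1, chr5:134841722-134842021 (-) for Rad54l and chr1:104172933-104173232 (-) for Pold1. Capitals mark matches to any of 4 motifs searched on both strands: the E2F site (TTTGGCG or TTTCGCG), which cell cycle genes often carry, the CCAAT box, the cell cycle homology region (TTTGAA), and a single p53 decamer, by its name, where a full p53 site holds a pair of them.
Mgmt: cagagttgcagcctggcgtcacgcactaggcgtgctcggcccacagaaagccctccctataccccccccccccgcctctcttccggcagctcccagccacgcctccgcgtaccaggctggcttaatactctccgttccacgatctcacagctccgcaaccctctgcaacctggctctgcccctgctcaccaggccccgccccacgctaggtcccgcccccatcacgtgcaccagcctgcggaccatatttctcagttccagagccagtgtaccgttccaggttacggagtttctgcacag
Lig1: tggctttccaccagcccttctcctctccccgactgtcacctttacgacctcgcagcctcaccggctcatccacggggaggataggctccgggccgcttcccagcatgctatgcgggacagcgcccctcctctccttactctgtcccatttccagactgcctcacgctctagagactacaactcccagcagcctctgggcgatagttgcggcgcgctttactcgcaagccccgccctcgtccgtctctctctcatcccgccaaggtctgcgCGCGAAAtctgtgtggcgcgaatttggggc
Rad54l: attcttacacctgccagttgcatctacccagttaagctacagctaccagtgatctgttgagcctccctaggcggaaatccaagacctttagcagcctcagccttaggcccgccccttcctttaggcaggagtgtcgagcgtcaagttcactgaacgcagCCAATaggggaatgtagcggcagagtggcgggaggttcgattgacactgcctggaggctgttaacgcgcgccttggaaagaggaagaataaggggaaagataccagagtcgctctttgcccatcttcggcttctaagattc
Pold1: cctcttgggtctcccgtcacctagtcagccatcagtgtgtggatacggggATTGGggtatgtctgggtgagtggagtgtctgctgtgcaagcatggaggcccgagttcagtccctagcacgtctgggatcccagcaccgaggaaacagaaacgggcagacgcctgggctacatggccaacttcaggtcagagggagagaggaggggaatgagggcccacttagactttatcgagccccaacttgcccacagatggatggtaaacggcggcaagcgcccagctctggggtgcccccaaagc
The Mgmt window held none of the 4 motifs, the Lig1 window an E2F site in reverse (CGCGAAA), and the Rad54l and Pold1 windows a CCAAT box each, in Pold1 as its reverse ATTGG. An E2F site was in 4 of the 33 measured repair genes with a sequence (Chek1, Lig1, Polk and Ung), beside 2.36% of all 27457 promoters of this length. A CCAAT box was in 14 of the 33, beside 37.7% of all, the cell cycle homology region in 4, beside 18.1%, and the single p53 decamer in 4 (H2ax, Mutyh, Neil1 and Rad50), beside 7.89%. A match describes letters in a window and is not evidence of binding, and Prkdc and Chek2 had no sequence in the table used.

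Among the signalling genes, 4 were measured, and Chek2, the checkpoint kinase that Atm activates, fell after TBI. Its log2 signal was 7.59, 6.91 and 6.82 in the control rats, 6.08, 6.08 and 5.39 in the TBI rats, and 5.85, 6.28, 6.12 and 6.44 in the MASM + TBI rats. Each of the 7 irradiated rats was below each control rat. The difference was -1.26 ± 0.27 (SE, 2.39-fold lower, adjusted p = 0.0349) for TBI and -0.93 ± 0.25 (adjusted p = 0.0956) for MASM + TBI, which missed the threshold. Atm, the kinase that responds to double strand breaks, was at 4.46, 4.48 and 5.54 in control, 3.96, 4.67 and 3.85 in TBI, and 4.38, 4.17, 4.01 and 4.43 in MASM + TBI rats. Control rat 3 stood above all others, the TBI and control rats overlapped, and 2 of the 4 MASM + TBI arrays were well above background for this probe. Its difference was -0.67 (adjusted p = 0.254) for TBI and -0.58 (adjusted p = 0.394) for MASM + TBI, and its second probe gave -1.12 (adjusted p = 0.127) for TBI. Without control rat 3 the differences were -0.31 and -0.22, and after the normexp correction of the background -0.11 and -0.12.

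Chek1 is the kinase that answers stalled replication. Its log2 signal was 5.79, 5.61 and 5.53 in control, 5.48, 5.81 and 7.42 in TBI, and 6.62, 5.76, 6.60 and 5.96 in MASM + TBI rats. TBI rat 3 was far above the other two TBI rats, one of which was just below and one just above all control rats, and the difference of 0.59 was not past the test in either comparison (adjusted p = 0.485 for TBI and 0.584 for MASM + TBI). For TBI the difference was 0.00 without TBI rat 3 and 0.97 without TBI rat 1. H2ax, the histone marked at breaks, gave -0.62 (adjusted p = 0.201) and -0.43 (adjusted p = 0.446), with groups that overlapped. Atr and Tp53bp1 had no matched probe. The call of Chek2 for TBI was lost when control rat 1, 2 or 3, TBI rat 2 or 3, or MASM + TBI rat 2 was left out, with adjusted p between 0.0542 and 0.0802, and its difference was -0.61 (adjusted p = 0.0201) after a normexp background correction.

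In nucleotide excision repair, 5 of 8 genes were measured, and Xpc, which recognises distorted DNA at the first step, was the lowest against control in both irradiated groups. It was at 8.09, 8.44 and 8.17 in control, 7.59, 7.38 and 7.31 in TBI, and 6.80, 7.61, 6.88 and 7.06 in MASM + TBI rats. No irradiated rat reached the lowest control rat. The difference was -0.81 ± 0.21 (adjusted p = 0.0616) for TBI, which missed the threshold, and -1.15 ± 0.19 (SE, 2.21-fold lower, adjusted p = 0.0216) for MASM + TBI, where Xpc fell. For TBI it passed without MASM + TBI rat 2 (adjusted p = 0.0213) and after the normexp correction (-0.52, adjusted p = 0.0389), which gave -0.69 (adjusted p = 0.0114) for MASM + TBI. For MASM + TBI it was lost without control rat 2 or 3 or MASM + TBI rat 1, 3 or 4, with adjusted p between 0.0521 and 0.0844. Xpa, which verifies the damage, Ercc1, part of the nuclease that cuts beside it, and the helicases Ercc2 and Ercc3 differed from control by -0.27 to 0.27 after TBI and by -0.20 to 0.14 after MASM + TBI. None of these 4 passed the test (limma) in either comparison, and Xpa and Ercc3 had an unadjusted p under 0.05 for TBI. TBI rat 1 was high for Ercc2, at 7.35 against 6.46 and 6.28 in the other TBI rats, and without it the Ercc2 difference went from 0.27 to -0.06.

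In base excision repair and single strand break repair, 10 of 11 genes were measured, and 2 fell in both comparisons with control. Lig1, the ligase that seals nicks in excision repair and between fragments of a replicating strand, was at 9.83, 9.82 and 10.00 in control, 9.01, 9.26 and 9.06 in TBI, and 8.86, 9.04, 8.90 and 8.75 in MASM + TBI rats. All 7 irradiated rats lay below all control rats. The difference was -0.78 ± 0.11 (SE, 1.71-fold lower, adjusted p = 0.00664) for TBI and -1.0 ± 0.10 (SE, 1.99-fold lower, adjusted p = 0.00226) for MASM + TBI, and both calls held with any one rat left out. Mutyh, the glycosylase that removes adenine placed opposite oxidised guanine, was at 6.01, 6.23 and 6.47 in control, 5.64, 5.68 and 5.73 in TBI, and 5.38, 5.61, 5.61 and 5.45 in MASM + TBI rats. Every rat of each irradiated group was below every control rat. It fell by 0.56 ± 0.12 (SE, 1.47-fold lower, adjusted p = 0.0392) after TBI and by 0.73 ± 0.12 (SE, 1.65-fold lower, adjusted p = 0.0173) after MASM + TBI.

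The Mutyh call depended on single rats. For TBI it was lost without control rat 2 or 3, without any 1 of the TBI rats, and without MASM + TBI rat 1, 2 or 4, with adjusted p between 0.0548 and 0.101, and for MASM + TBI it was lost without control rat 2 or MASM + TBI rat 1 or 4, with adjusted p between 0.0522 and 0.0638. After the normexp correction its differences were -0.23 and -0.27. The other 8 genes were the scaffold Xrcc1, the break sensors Parp1 and Parp2, the nuclease Apex1 and the glycosylases Ogg1, Neil1, Ung and Mpg, which start the removal of damaged bases. Their differences ran from -0.42 (Neil1, adjusted p = 0.13) to 0.14 (Apex1, adjusted p = 0.561) for TBI and from -0.40 (Parp2, adjusted p = 0.343) to 0.38 (Apex1, adjusted p = 0.149) for MASM + TBI. A second Parp2 probe, well above background on every array, gave 0.12 and 0.02, so its probes disagree. None of the 8 passed the test (limma), while Neil1 and Xrcc1 in both comparisons, and Apex1 and Parp1 for MASM + TBI, had an unadjusted p under 0.05. Of the 10 genes, 9 had an estimate below 0 after TBI and 7 after MASM + TBI. TBI rat 3 stood lowest of the TBI rats for Ung, at 8.37 against 9.12 and 9.10.

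Mgmt, which takes alkyl groups off guanine directly in a single-use reaction, rose more than any other of the 37 genes in both comparisons with control. Its log2 signal was 11.59, 12.04 and 11.82 in control, 14.08, 14.21 and 13.91 in TBI, and 13.88, 14.39, 14.01 and 14.17 in MASM + TBI rats. The lowest irradiated rat was above the highest control rat, and the TBI rats lay within the range of the MASM + TBI rats. Mgmt rose by 2.25 ± 0.16 (SE, 4.75-fold, adjusted p = 0.000521) after TBI and by 2.30 ± 0.15 (SE, 4.92-fold, adjusted p = 0.000478) after MASM + TBI. Its promoter, printed above, held none of the motifs searched. The call held under 19 of 20 other settings for TBI and 20 of 21 for MASM + TBI, the exception in both being the t-test of the study's methods after adjustment (adjusted p = 0.155 and 0.0611). The deposited value table, counted among these settings, holds the same numbers as the main analysis.

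All 3 polymerases had a probe, and Pold1, the catalytic subunit of the polymerase that copies the lagging strand and fills repair gaps, fell in both comparisons. It was at 8.69, 8.69 and 8.80 in control, 7.97, 7.86 and 7.32 in TBI, and 7.56, 7.81, 7.72 and 7.52 in MASM + TBI rats. The control rats were tightly grouped above all irradiated rats. The difference was -1.01 ± 0.17 (SE, 2.01-fold lower, adjusted p = 0.014) for TBI and -1.07 ± 0.15 (SE, 2.10-fold lower, adjusted p = 0.011) for MASM + TBI. Without control rat 3 both missed the threshold, at adjusted p = 0.0539 and 0.0528, and after the normexp correction the differences were -0.64 and -0.69, both past it. Polh, which copies past damage left by ultraviolet light, gave -0.31 (adjusted p = 0.35) and -0.19 (adjusted p = 0.671). Polk, another polymerase that copies past damage, was well above background on the TBI arrays and on no control or MASM + TBI array, and no fold is given for it. Its mean log2 signal was nonetheless alike, at 3.11 in control, 3.08 in TBI and 3.17 in MASM + TBI rats. The lowest log2 signal that counted as well above background was lower on the TBI arrays, at 2.54 to 3.16, than on the other arrays, at 3.68 to 4.09.

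Of the mismatch repair genes 2 were measured. Pms2, which cuts the strand that carries a mismatch, was at 8.06, 8.01 and 7.98 in control, 7.77, 7.59 and 7.59 in TBI, and 7.93, 7.88, 7.82 and 7.91 in MASM + TBI rats. The 3 groups did not overlap at all, with the MASM + TBI rats between the others. Pms2 fell by 0.37 ± 0.08 (SE, 1.29-fold lower, adjusted p = 0.0316) after TBI, a change under the 1.5-fold of the study, and for MASM + TBI it gave -0.13 (adjusted p = 0.414). The TBI call was lost without control rat 1, 2 or 3, TBI rat 2 or MASM + TBI rat 1 or 2, with adjusted p between 0.0524 and 0.0892, and the normexp correction gave -0.23 (adjusted p = 0.0123). A second Pms2 probe, not well above background on any control array, gave the same direction. Exo1, the nuclease that removes the mismatched strand, was at 6.31, 6.68 and 6.55 in control, 6.84, 6.84 and 4.81 in TBI, and 5.23, 5.43, 5.81 and 5.34 in MASM + TBI rats. TBI rat 3 was apart from the other two TBI rats, and all MASM + TBI rats were below control, with differences of -0.35 (adjusted p = 0.704) and -1.06 (adjusted p = 0.29). Without TBI rat 3 the TBI difference turned to 0.33 (adjusted p = 0.325), and the MASM + TBI difference, of the same size, passed the test (adjusted p = 0.0165).

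Homologous recombination and crosslink repair had 7 of 10 genes measured. Rad54l, a motor protein that works on DNA during recombination, was at 6.0, 6.65 and 6.30 in control, 5.13, 5.26 and 5.21 in TBI, and 5.16, 4.88, 5.06 and 4.86 in MASM + TBI rats. All irradiated rats were below all control rats. It fell by 1.11 ± 0.16 (SE, 2.16-fold lower, adjusted p = 0.00857) after TBI and by 1.33 ± 0.15 (SE, 2.51-fold lower, adjusted p = 0.0039) after MASM + TBI, and both calls held with any one rat left out. The normexp correction, with an offset of 50, gave -0.32 (adjusted p = 0.0221) and -0.38 (adjusted p = 0.00852). Rad50, the arm of the MRN complex that tethers broken ends, was at 5.62, 5.36 and 5.39 in control, 4.67, 4.73 and 4.94 in TBI, and 5.37, 5.12, 4.94 and 5.45 in MASM + TBI rats. The TBI rats were below control, while the MASM + TBI rats overlapped the control rats and lay just above the TBI rats. Rad50 fell by 0.68 ± 0.15 (SE, 1.60-fold lower, adjusted p = 0.0399) after TBI and gave -0.24 (adjusted p = 0.474) after MASM + TBI, where it was -0.14 without MASM + TBI rat 3, -0.16 without control rat 1, -0.52 for rat 3 alone and -0.06 after the normexp correction.

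The Rad50 call for TBI was lost without control rat 1, 2 or 3, TBI rat 1 or 2 or MASM + TBI rat 1 or 2, with adjusted p between 0.0569 and 0.111, and the normexp correction gave -0.22 (adjusted p = 0.0235). Its partners in the complex, Mre11 and Nbn, gave -0.07 (adjusted p = 0.763) and -0.30 (adjusted p = 0.496) for TBI, and 0.13 (adjusted p = 0.667) and -0.11 (adjusted p = 0.935) for MASM + TBI. Nbn in the TBI rats was split, with 8.72 and 8.65 in rats 1 and 2 and 9.58 in rat 3. Brca2, which acts in recombination at breaks, gave -0.58 (adjusted p = 0.162) and -0.67 (adjusted p = 0.14), and every MASM + TBI rat was below every control rat. For TBI it was -0.35 without TBI rat 1 and passed the test without TBI rat 2 (-0.84, adjusted p = 0.0419). A second Brca2 probe, well above background on 2 TBI arrays and on no control or MASM + TBI array, went the other way for TBI, at 0.58. For MASM + TBI that probe gave -0.96. Brca1 was not well above background on any array, and its call for TBI was lost when any one control or TBI rat was left out. Fancd2, which marks crosslinks for repair, was well above background on 1 of the 10 arrays, that of TBI rat 1, and no fold is given for it.

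All 5 genes of end joining were measured, and 1 rose. Prkdc, the catalytic subunit of the kinase that binds broken ends, was at 6.46, 6.47 and 6.34 in control, 6.86, 7.0 and 7.27 in TBI, and 7.0, 6.80, 7.06 and 6.76 in MASM + TBI rats. Every irradiated rat was above every control rat. Prkdc rose by 0.62 ± 0.13 (SE, 1.54-fold, adjusted p = 0.0312) after TBI, and the difference of 0.48 ± 0.12 (adjusted p = 0.0774) for MASM + TBI missed the threshold. The TBI call was lost without control rat 1, 2 or 3 or TBI rat 2, with adjusted p between 0.0652 and 0.104, after the normexp correction (0.28, adjusted p = 0.0559), and with the mean of both its probes (0.52, adjusted p = 0.113), while the MASM + TBI difference passed without TBI rat 3 (adjusted p = 0.0427). The second probe gave 0.43 (adjusted p = 0.414) for TBI, with groups that overlapped. Xrcc5 and Xrcc6, the ring that slides onto a broken end, and Xrcc4 and Lig4, which seal it, differed from control by -0.12 to 0.41 after TBI and by 0.07 to 0.39 after MASM + TBI. None of these 4 passed the test (limma) or had an unadjusted p under 0.05 in either comparison with control.

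**Figure D2:**
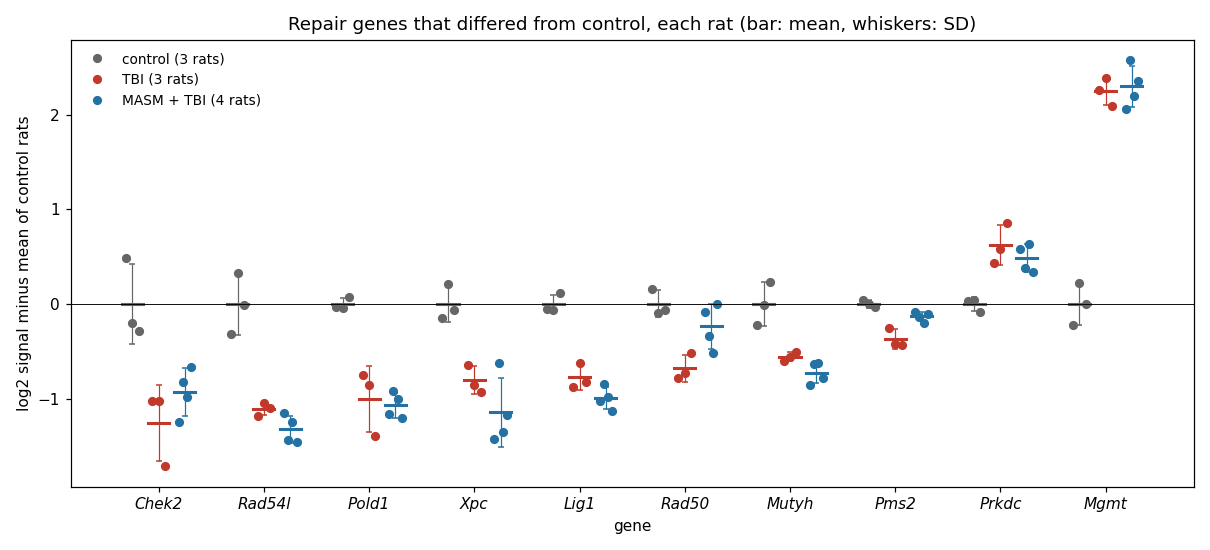
Log2 signal of each rat minus the mean of the control rats (y axis) for the 10 repair genes past the test in a comparison with control, Brca1 left out (x axis), with points for rats, bars for group means and whiskers for the SD. All irradiated rats are above control for Mgmt and Prkdc and below it for Chek2, Rad54l, Pold1, Xpc, Lig1, Mutyh and Pms2, while for Rad50 the MASM + TBI rats overlap the control rats.

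Between MASM + TBI and control livers, 6 of the 37 measured genes passed the test (limma), Mgmt higher and Rad54l, Xpc, Pold1, Lig1 and Mutyh lower. That was 16.2% of the measured repair genes, beside 3.7% of all genes, of which 1.24% were higher and 2.46% lower. The median log2 difference of the 37 genes was -0.19, beside 0.00 over all genes, with 24 estimates below 0 and 13 above. In 17 genes every MASM + TBI rat was below every control rat and in 3 (Mgmt, Prkdc and Apex1) every one was above, together 54.1%, beside 22.3% of all genes, of which 12.1% had the MASM + TBI rats below. All 5 end joining genes had estimates above 0. With the thresholds of the study on limma p-values 10 genes passed, 1 higher and 9 lower, beside 9.18% of all genes, and at the unadjusted p alone 15 passed, beside 20.5% of all genes. With the methods' t-test in place of limma, 10 passed both thresholds, beside 6.75% of all genes. The median moved to -0.06 after the normexp correction.

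MASM + TBI rat 3 shared its slide with the 3 control rats, which allowed a comparison within that slide. There its difference from the control mean was 2.20 for Mgmt, -0.98 for Lig1, -1.25 for Rad54l, -1.01 for Pold1, -1.35 for Xpc and -0.63 for Mutyh, and the median over the 37 genes was -0.19. These values have the same signs as the fitted differences over all 4 rats, and they rest on 1 MASM + TBI rat. A fit with the slide as a fixed block gives these same differences, since it too sets rat 3 alone against the control rats, with that lone rat assumed to vary like the others. Mgmt passed in it (adjusted p = 0.0344), the other 5 genes had adjusted p between 0.0505 and 0.252, and with an arm of 1 rat these p-values do not show a weaker difference.

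Between MASM + TBI and TBI livers, 0 of the 37 measured genes passed the test (limma), beside 1.08% of all genes. At an unadjusted p under 0.05 there were 5 (Ung, Xrcc6, Rad50, Pms2 and Ercc3), all higher with MASM, which is 13.5% beside 16.5% of all genes in either direction and 7.11% higher, and 0 of these reached a change of 1.5-fold. The t-test of the study's methods also gave 5 at the unadjusted threshold, beside 10.7% of all genes, and 0 after adjustment. The groups did not overlap for Ogg1, Ung, Rad50 and Pms2, higher with MASM, and for Mutyh and Parp1, lower, together 16.2%, beside 17.2% of all genes. The median difference was 0.09, beside 0.01 over all genes.

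The 95% intervals of these differences show what sizes the data leave possible. For Mgmt the difference was 0.05 (-0.30 to 0.40), for Lig1 -0.22 (-0.45 to 0.01), for Rad54l -0.21 (-0.56 to 0.13) and for Pold1 -0.07 (-0.42 to 0.29). For Rad50 it was 0.44 (0.12 to 0.77, adjusted p = 0.17) and for Pms2 0.24 (0.07 to 0.40, adjusted p = 0.152), neither past the test over all probes. For Chek2 it was 0.32 (-0.25 to 0.90), for Xpc -0.34 (-0.78 to 0.11), and for Prkdc -0.14 (-0.41 to 0.13). Single rats moved several of these values: without TBI rat 3 the difference was 0.09 for Chek2, -0.02 for Prkdc, -0.27 for Pold1 and -0.03 for Mgmt. With each rat left out in turn they ran from 0.09 to 0.44 for Chek2, from -0.23 to -0.02 for Prkdc, from -0.27 to 0.06 for Pold1, from -0.04 to 0.13 for Mgmt, from -0.51 to -0.24 for Xpc and from -0.27 to -0.14 for Lig1. Exo1, with TBI rat 3 apart, gave -0.71 (-1.76 to 0.34), and without that rat -1.39 (adjusted p = 0.0108), the single repair gene to pass in this comparison when any one rat was left out.

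A further 98 genes of the same pathways were listed, of which 73 had a probe. After TBI 8 passed the test, 1 higher and 7 lower, beside the same 6.63% of all genes, with a median of -0.12. After MASM + TBI 6 passed, 1 higher and 5 lower, beside 3.7% of all genes, with a median of -0.05. That count was 3 without control rat 1 or 3 or MASM + TBI rat 1, and 10 without TBI rat 3. Between the irradiated groups 0 passed (limma), where 8 of the 73 had an unadjusted p under 0.05, a smaller share than the 16.5% of all genes.

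Nhej1, which bridges ends in end joining, rose. It was at 5.43, 5.35 and 5.53 in control, 7.58, 7.35 and 8.0 in TBI, and 8.17, 8.32, 8.32 and 8.27 in MASM + TBI rats. The 3 groups did not overlap. It rose by 2.21 ± 0.15 (4.62-fold, adjusted p = 0.000461) after TBI and by 2.83 ± 0.14 (7.13-fold, adjusted p = 0.000146) after MASM + TBI. The difference of 0.63 between the irradiated groups missed the threshold (adjusted p = 0.0798), which it passed in 3 of 20 other settings. A second probe, well above background on every array, gave only 0.38 for TBI and 0.11 between the irradiated groups, so the probes disagree in size. The mean of both gave 1.30 for TBI and 1.66 for MASM + TBI. The normexp correction gave 0.97 and 1.36.

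Bard1, the partner of Brca1, was at least 5.99-fold lower in TBI and at least 3.00-fold lower in MASM + TBI than in control rats, given as bounds since its probe was well above background on the control arrays and on no array of either irradiated group (adjusted p = 0.00711 and 0.0102). The bound sets the control mean against the lowest signal that counted as well above background on each irradiated array, or the probe's own where higher. That lowest log2 signal was 2.54 to 3.16 on TBI arrays and 3.68 to 4.09 on MASM + TBI arrays. The gap between the bounds is therefore not a difference between the irradiated groups, for which Bard1 did not pass the test (limma, adjusted p = 0.788). After the normexp correction the differences were smaller, at -0.61 (adjusted p = 0.0177) and -0.55 (adjusted p = 0.0226) on the log2 scale. The helicase Recql4 fell by 1.30 (adjusted p = 0.011) and 1.11 (adjusted p = 0.0215), Timeless, which steadies the replication fork, by 0.93 (adjusted p = 0.00631) and 0.65 (adjusted p = 0.027), and Rfc3, of the loader that places the sliding clamp on DNA, by 0.81 (adjusted p = 0.00847) and 0.61 (adjusted p = 0.0263). Its partners Rfc2 and Rfc4 fell after TBI, by 0.49 (adjusted p = 0.0356) and 0.41 (adjusted p = 0.0252), and gave -0.36 (adjusted p = 0.097) and -0.05 (adjusted p = 0.82) after MASM + TBI. The clamp itself, Pcna, gave -0.44 (adjusted p = 0.0575) for TBI, while its second probe, also well above background on every array, gave 0.00 (adjusted p = 0.995).

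The calls of Rfc2 and Rfc4 for TBI, and of Recql4, Timeless and Rfc3 for MASM + TBI, were each lost when one of several rats was left out, control rats among them. Without control rat 3 the adjusted p was 0.115 for Rfc2, 0.0718 for Rfc4, 0.084 for Recql4, 0.0739 for Timeless and 0.102 for Rfc3. After the normexp correction the TBI differences were -0.30 for Recql4, -0.58 for Timeless and -0.30 for Rfc2, all 3 past the test, and -0.13 for Rfc4, which was not (adjusted p = 0.0741). For MASM + TBI it gave -0.29 for Recql4 and -0.41 for Timeless, and -0.24 for Rfc2, which then passed (adjusted p = 0.0357).

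**Figure D3:**
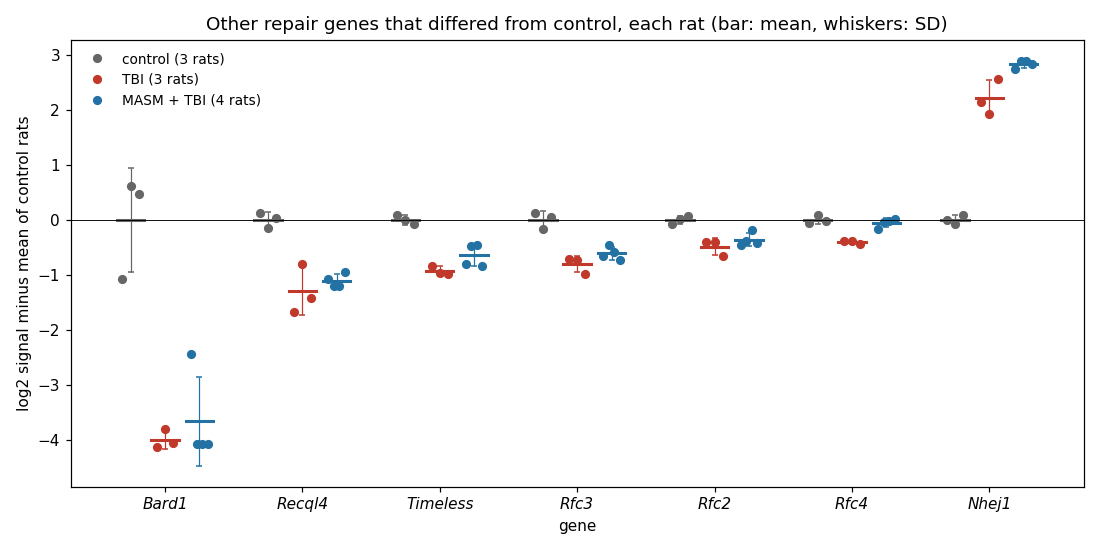
Log2 signal of each rat minus the mean of the control rats (y axis) for 7 of the further repair genes past the test in a comparison with control (x axis), with points for rats, bars for group means and whiskers for the SD. Nhej1 is above control in every irradiated rat and the other genes below it in every TBI rat; the Bard1 points of the irradiated rats were not well above background and give only a bound.

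Markers of dividing cells were lower in the irradiated livers as well. Of 12 such markers 10 had a probe, and 9 fell in both comparisons with control, among them Cdk1, the kinase that starts mitosis, by 3.50 (adjusted p = 0.00329) and 3.30 (adjusted p = 0.00383), and Plk1, a mitotic kinase, by 2.70 and 2.60. The tenth, Cdc20, gave -0.58 (adjusted p = 0.389) and -0.62 (adjusted p = 0.44). Of the 10 markers 6, and of the 9 that fell 5, were well above background on every array, while Ccna2 and Aurkb were so on no TBI array and Ttk and Aurkb on no MASM + TBI array. Their summed signal ran from 1452 to 2520 in control, 371 to 567 in TBI and 435 to 548 in MASM + TBI rats. Of 9 T cell markers 3 passed the test as lower after TBI and 2 after MASM + TBI, beside 3.66% and 2.46% of all genes. In 3 and 6 of the 9 every irradiated rat lay below every control rat, and 3 and 5 had an unadjusted p under 0.05. Their summed signal ran from 723 to 1060 in control, 401 to 647 in TBI and 302 to 525 in MASM + TBI rats. Cd3e, one of them in both comparisons and a defining chain of the T cell receptor complex, was well above background on no array, and Cd3g went from all 3 control arrays to 2 of 3 TBI and 1 of 4 MASM + TBI arrays. Other T cell markers had estimates above 0, none past the test: Cd4, Lck and Cd5 for TBI (0.71, 0.55 and 0.30), and Lck and Cd5 for MASM + TBI (0.36 and 0.41). The part of dividing cells and of lymphocytes in the lower signals of Lig1, Pold1, Rad54l, Chek2 and Bard1 was not tested.

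The summed signal of the 8 hepatocyte markers ran from 826353 to 885767 in control, 750452 to 914657 in TBI and 850161 to 908148 in MASM + TBI rats, so these ranges overlapped. Of 7 Kupffer cell markers 0 passed the test in any comparison (limma), with 0 at an unadjusted p under 0.05 in either comparison with control and 5 between the irradiated groups, which is 71.4% beside 16.5% of all genes. All 7 estimates were below 0 for MASM + TBI against TBI, with a median of -0.77. Their summed signal ran from 59629 to 88813 in control, 60729 to 112512 in TBI and 47280 to 59993 in MASM + TBI rats, so the irradiated groups did not overlap, and the part of Kupffer cells in the differences of repair genes between these groups was not tested. Of 4 measured B cell markers 1, Cd79b, fell in each comparison with control, and its probe was well above background on all control arrays and no irradiated array. For TBI 2 of the 4 estimates were above 0, among them Cd22 at 0.54 (adjusted p = 0.117), with every TBI rat above every control rat.

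**Figure D4:**
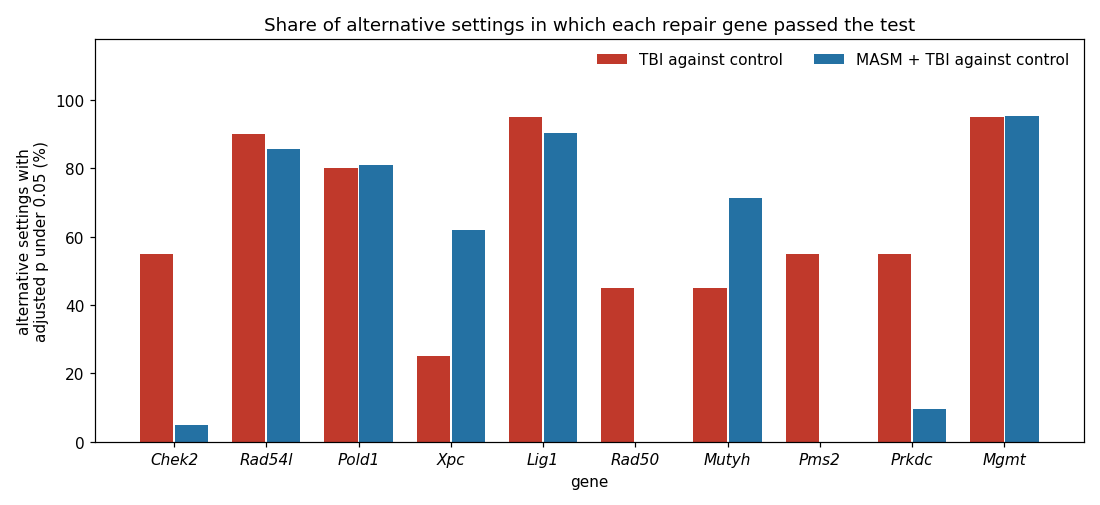
Share of the alternative settings (y axis, percent of 20 for TBI and of 21 for MASM + TBI) in which each repair gene (x axis) had an adjusted p under 0.05 against control. Mgmt, Lig1, Rad54l and Pold1 pass in most settings of both comparisons, while Rad50 and Pms2 pass in none for MASM + TBI. The settings include the deposited value table, which holds the same numbers as the main analysis and repeats its calls.

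Across all alternative settings tried, the calls were not equally firm. The settings are not independent checks, since the deposited value table holds the same numbers as the main analysis and repeats every call. For TBI against control, leaving out a MASM + TBI rat keeps the difference as it was, and the slide as a random block cannot separate slide from group. For TBI against control Mgmt and Lig1 passed in 19 of 20 settings, Rad54l in 18 and Pold1 in 16, while Chek2, Prkdc and Pms2 passed in 11, Mutyh and Rad50 in 9 and Xpc in 5. For MASM + TBI against control Mgmt passed in 20 of 21, Lig1 in 19, Rad54l in 18, Pold1 in 17, Mutyh in 15 and Xpc in 13. No setting turned the direction of any of these genes against control, but many could not have done so. For TBI the value table, the dim filter, the model of only 2 groups, the t-test, the other prior and the replicate block left each difference unchanged.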

How the data were processed

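Liver RNA of 10 rats (3 control, 3 TBI and 4 MASM + TBI, from the labels) had been labelled with Cy3 and hybridised to rat arrays. For every spot the deposited intensity came from Agilent Feature Extraction 10.7.3.1, background-subtracted and not normalized between arrays, and the deposited value table held the same numbers. Control spots (1639 per array) and the 76 to 112 outlier spots per array were left out, 0 spots were saturated, and log2 intensities were quantile normalized as in the study's methods and averaged per probe. Accessions gave 16968 of 41012 probes a RefSeq symbol (GRCr8), and 40945 probes with a value on every array were tested. Each gene took its probe with the highest mean over the 10 arrays. Groups were compared with limma 3.58.1 in R 4.3.3, one mean per group on all arrays, Benjamini-Hochberg adjustment over all probes, and a call at an adjusted p under 0.05. The model was tested on simulated data. Plots used matplotlib 3.10.9 in Python 3.11.15.

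All member genes could be named; values per rat are given for those past the test, except Brca1, which was not well above background, and for Atm, Chek1, Chek2 and Exo1. Of the further repair genes up to 10 with the smallest p are named, Nhej1 with values per rat, and 1 is not reported singly here. The members, lists and tests were chosen with earlier results of these data known. Markers of dividing cells, hepatocytes, T cells, B cells and Kupffer cells are described in the text. Of the remaining lists, 1 of 5 erythroid markers fell for MASM + TBI against control and 1 of 4 stellate cell markers in both comparisons with control, and 0 of 3 endothelial and 0 of 2 cholangiocyte markers passed the test (limma). At an unadjusted p under 0.05 there were 4 erythroid (2 higher and 2 lower for TBI, 1 and 3 for MASM + TBI), 2 stellate and 2 endothelial markers for TBI and 4, 4 and 1 for MASM + TBI, beside 25.3% and 20.5% of all genes. Replicate numbers name rats and did not pair them. Alternatives were another scaling, normexp correction of the background (offset 50), a filter on dim probes, the deposited value table, a model of only 2 groups, the methods' t-test, another prior, blocks by replicate number and slide, the mean of all probes, and each rat left out.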

Additional observations from a re-analysis of the deposited data

Results flagged for a closer look

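Among the 37 measured repair genes in the group of 4 MASM + TBI rats, 1 value stood far from the others of its group: the log2 signal of Nbn, of the complex that senses breaks, was 9.38 in MASM + TBI rat 1 and between 9.10 and 9.12 in the other rats, a gap of 0.917 of the range of the group. Chance puts about 1 of 20 groups past the limit used, and 37 groups of this kind were examined.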

How the results depend on the processing

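For TBI against control, the 10 repair genes called became 3 with only the 2 groups compared and 0 with the methods' t-test, where 11 had an unadjusted p under 0.05 beside 15.8% of all genes. The 8 further repair genes became 5 and 0, and 18 with the slide as a random block. That block gave a negative correlation within slides (-0.133). TBI and control rats share no slide, so the block cannot separate slide from group for TBI. Its higher counts, here and below, are not read as firmer calls. For MASM + TBI against control, the 6 repair genes became 0 with the methods' t-test (17 at an unadjusted p under 0.05, beside 17.7% of all genes) and 1 with the slide as a fixed block, a fit that rests on 1 MASM + TBI rat. The 6 further genes became 1 and 3 there, 14 with the slide as a random block and 11 after the normexp correction. Between the irradiated groups, the 0 further genes became 2 with scaling to the 75th percentile and 3 with the slide as a random block. The median over the repair genes moved from -0.27 to -0.15 for TBI after the normexp correction, and for MASM + TBI from -0.19 to -0.13 with scaling to the 75th percentile, -0.061 after the normexp correction, -0.13 with the filter on dim probes, and -0.15 with the slide as a random block.

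Replicate numbers did not pair the rats: deviations of same-numbered rats correlated at -0.125 to 0.169, and those of other pairs at -0.134 to 0.149. With the replicate block the repair genes called were 3 for TBI and 2 for MASM + TBI against control, the further genes 4 and 2, and the median for MASM + TBI was -0.22. Probes called went from 2305 to 1053, from 1225 to 298 and from 666 to 22.

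With each rat left out in turn, the repair genes called ranged from 3 (without control rat 3) to 10 for TBI, from 4 to 8 for MASM + TBI and from 0 to 1 between the irradiated groups. The further genes ranged from 6 to 9, from 3 to 10 and from 0 to 1, and the medians from -0.34 to -0.21, from -0.22 to -0.13 and from -0.01 to 0.13. The cause of these shifts was not tested. Signal over background limits Brca1, Fancd2 and Polk, whose probes were not well above background on any array of at least 1 group.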
